A study of Mus musculus with 9 samples.

Results

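Lysosomal enzymes, their helper proteins and the proteins of the lysosomal membrane were followed in mouse brain after an injection of lipopolysaccharide (LPS), a component of the bacterial outer membrane that triggers innate immune inflammation. The members were a list of 39 genes for lysosomal hydrolases, accessory proteins and membrane proteins other than cathepsins, with the transcription factor Tfeb. Each gene was read by the probe set annotated to it alone that had the highest mean over the 9 arrays, and 36 of the 39 had such a probe set among the 17097 genes measured. Idua, Neu1 and Cd63 were not analysed here. Of the 36 measured members, 17 had 1 probe set and 19 had several.

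RNA came from the injected side of the brain of male C57Bl/6J mice aged 10 to 12 weeks, which were perfused with saline through the heart before dissection. The 3 groups were LPS collected at 4 d, the resolution phase of the inflammation, LPS collected at 1 d, its induction phase, and phosphate-buffered saline (PBS) collected at 4 d, all injected into the striatum. Each group had 3 arrays, and each array held RNA pooled from 3 mice, so replicate error here is the variation among pools. PBS was collected at 4 d only, so the effect of the injection itself at 1 d cannot be told apart from that of LPS at 1 d. All values are log2 expression values, and a difference of 1 is a doubling of the signal.

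The lysosome is the acidic compartment in which cells break down material taken up by endocytosis and phagocytosis and worn-out parts of their own. Soluble hydrolases each cut 1 kind of bond, accessory proteins present lipids to them, and membrane proteins protect the limiting membrane, export the products and carry ions. In the brain all cells have lysosomes, and microglia and macrophages, which clear debris and dead cells, are known for large amounts of them. Loss of many of these genes causes a lysosomal storage disease with neurodegeneration.

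At 4 d after LPS, 11 of the 36 members were higher than in PBS and 0 were lower. The 11 were the glycosidases Gusb, Hexa and Man2b1, the protease Lgmn, the lipase Lipa, the phosphatase Acp5, the accessory proteins Npc2 and Grn, and the membrane proteins Lamp2, Laptm5 and Cd68. At 1 d, 5 of these (Gusb, Acp5, Grn, Lamp2 and Cd68) were higher than in PBS and 0 members were lower. Set directly against 1 d, 4 d had 9 higher members, and the 5 sulfatases passed no comparison. A member was counted as higher or lower, or as passing, where its fold was 1.5 or more and the moderated test of limma, with the Benjamini-Hochberg correction across every probe set on the array, gave an adjusted p under 0.05.

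Promoter sequences of some members are shown because lysosomal genes are known to share a short regulatory motif, and its presence can be set beside the changes after LPS. Many lysosomal genes carry the E-box CACGTG near their start, often within the longer core GTCACGTG of the CLEAR element, the sequence through which Tfeb and related factors are known to switch on lysosomal genes together. In RefSeq promoter windows of build GRCm38.p6, which run from 250 bases before to 50 bases after each annotated start, 33 of the 36 measured members had a window. Galns, Asah1 and Npc1 had none there. Read on both strands, the E-box was found for 10 of the 33 members, against 8.09% of all 27025 genes with a window. The longer core, which contains the E-box, was found for 9 of the 33 members, against 2.55% of all genes.

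Of the 11 members that were higher after LPS, only Lgmn had an E-box in a window, and of the 22 members with a window that passed no comparison, 9 had one (Gaa, Glb1, Gla, Naglu, Arsa, Sgsh, Lamp1, Cln3 and Mcoln1). These are counts with no test between them. The following stretches, the 100 bases before the start written 5′ to 3′ on the gene's strand, are examples of members with an E-box, which is in capitals. The first is Lgmn, whose E-box lay at position -49 from 1 of its 2 annotated starts, at chr12:102439093-102439192 (minus strand). Lamp1, with 4 E-boxes between positions -61 and -15, is at chr8:13159061-13159160 (plus strand). Mcoln1, with 2 at positions -71 and -45, is at chr8:3500419-3500518 (plus strand). Naglu, with 1 at position -73, is at chr11:101069994-101070093 (plus strand).
Lgmn: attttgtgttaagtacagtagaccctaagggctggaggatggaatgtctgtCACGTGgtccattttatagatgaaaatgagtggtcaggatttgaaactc
Lamp1: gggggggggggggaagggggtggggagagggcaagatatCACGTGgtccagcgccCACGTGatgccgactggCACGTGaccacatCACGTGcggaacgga
Mcoln1: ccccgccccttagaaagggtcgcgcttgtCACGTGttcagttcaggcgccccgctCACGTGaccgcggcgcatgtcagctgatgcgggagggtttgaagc
Naglu: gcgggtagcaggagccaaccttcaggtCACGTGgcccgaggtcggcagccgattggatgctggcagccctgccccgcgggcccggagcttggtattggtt

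Examples of members with no E-box in the window are set beside them, 4 that were higher after LPS and Tpp1, which passed no comparison. Gusb is at chr5:130003050-130003149 (minus strand), Hexa at chr9:59539440-59539539 (plus strand), Laptm5 at chr4:130913216-130913315 (plus strand) and Cd68 at chr11:69666171-69666270 (minus strand). Tpp1 is at chr7:105752236-105752335 (minus strand).
Gusb: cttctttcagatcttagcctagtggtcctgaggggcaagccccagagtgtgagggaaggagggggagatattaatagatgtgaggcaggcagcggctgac
Hexa: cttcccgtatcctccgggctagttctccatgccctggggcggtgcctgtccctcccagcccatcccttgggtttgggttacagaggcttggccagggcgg
Laptm5: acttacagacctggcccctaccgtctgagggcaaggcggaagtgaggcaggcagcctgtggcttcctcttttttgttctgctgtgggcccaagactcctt
Cd68: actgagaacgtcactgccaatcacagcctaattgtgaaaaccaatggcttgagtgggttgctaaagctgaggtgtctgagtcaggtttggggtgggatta
Tpp1: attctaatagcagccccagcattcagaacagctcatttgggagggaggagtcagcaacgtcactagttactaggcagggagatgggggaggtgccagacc

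A core of the site bound by the myeloid factor PU.1, GAGGAAGT, was found for 2 of the 33 members, Gusb and Gla, against 3.69% of all genes. The GC box GGGCGG, a site of the general SP factors, was found for 25 of the 33, against 38.2% of all genes. It was found for 9 of the 11 members that were higher after LPS and for 16 of the 22 that passed no comparison. These are matches of letters in a fixed window, not sites shown to be bound.

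**Figure D1:**
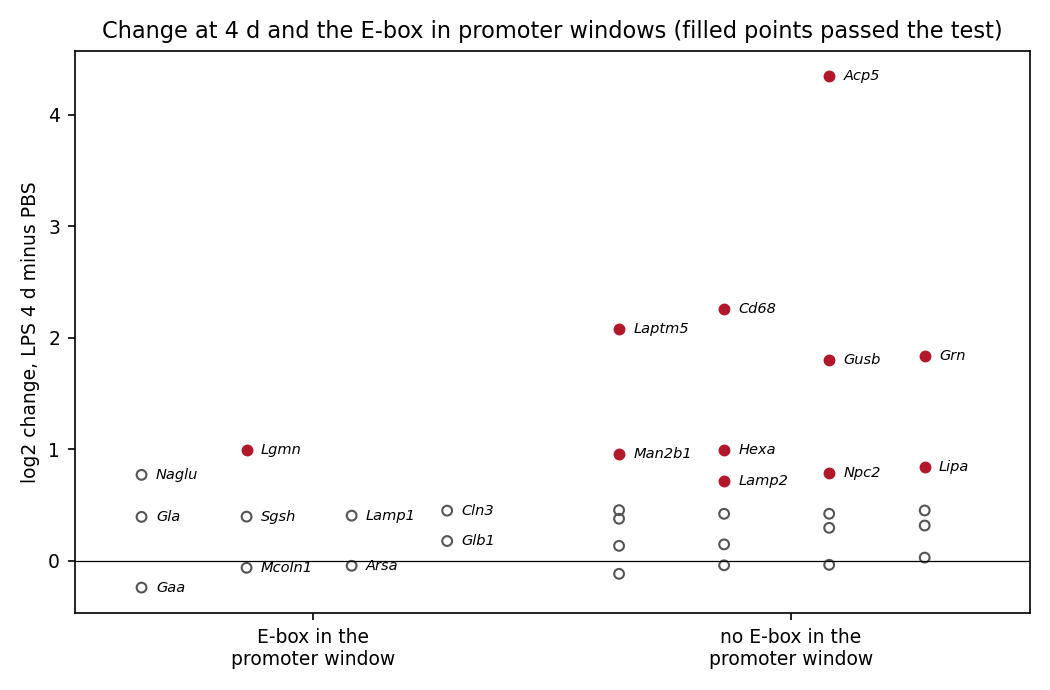
Log2 change at 4 d (LPS 4 d minus PBS, vertical axis) of the 33 members with a promoter window, split by whether a window holds the E-box; each point is 1 gene, and filled points passed the test. Lgmn, at 0.99, is the 1 filled point among the 10 genes with the E-box, and the other 10 filled points have none in the window.

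Among all 17097 genes, 4.21% were higher and 0.205% lower at 4 d than in PBS by the same rule, and 5.84% were higher among the genes above background in at least 1 group. The 11 higher members were 30.6% of the 36. Since the members were chosen with earlier results of these data known, their shares here and below describe the list. They are not a test of lysosomal genes in general. At 1 d, 3.86% of all genes were higher than in PBS, 0.532% were lower and 5.35% of those above background were higher, beside 13.9% of the members. Against 1 d, 1.84% of all genes were higher at 4 d, 1.37% were lower and 2.54% of those above background were higher, beside 25.0% of the members. By the moderated F-test over the 3 groups, 15 of the 36 members passed at an adjusted p under 0.05, against 7.67% of all genes. Both comparisons with PBS use the same 3 PBS arrays.

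The median change from PBS over the 36 members was 0.42 at 4 d, against -0.02 over all genes, and 30 of the 36 changes were above 0. At 1 d it was 0.08, against -0.03 over all genes, with 22 changes above 0. From 4 d against 1 d it was 0.32, against 0.00 over all genes, with 31 changes above 0. Before correction for multiple tests, the p of limma was under 0.05 for 24 higher members and 1 lower one (Gaa) at 4 d. At 1 d the unadjusted counts were 7 higher and 1 lower (Npc1), and between 4 d and 1 d they were 20 higher and 1 lower (Gaa). The share of all genes at an unadjusted p under 0.05 was not counted. The unadjusted counts here and below therefore have no such share beside them and only describe the lists.

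**Figure D2:**
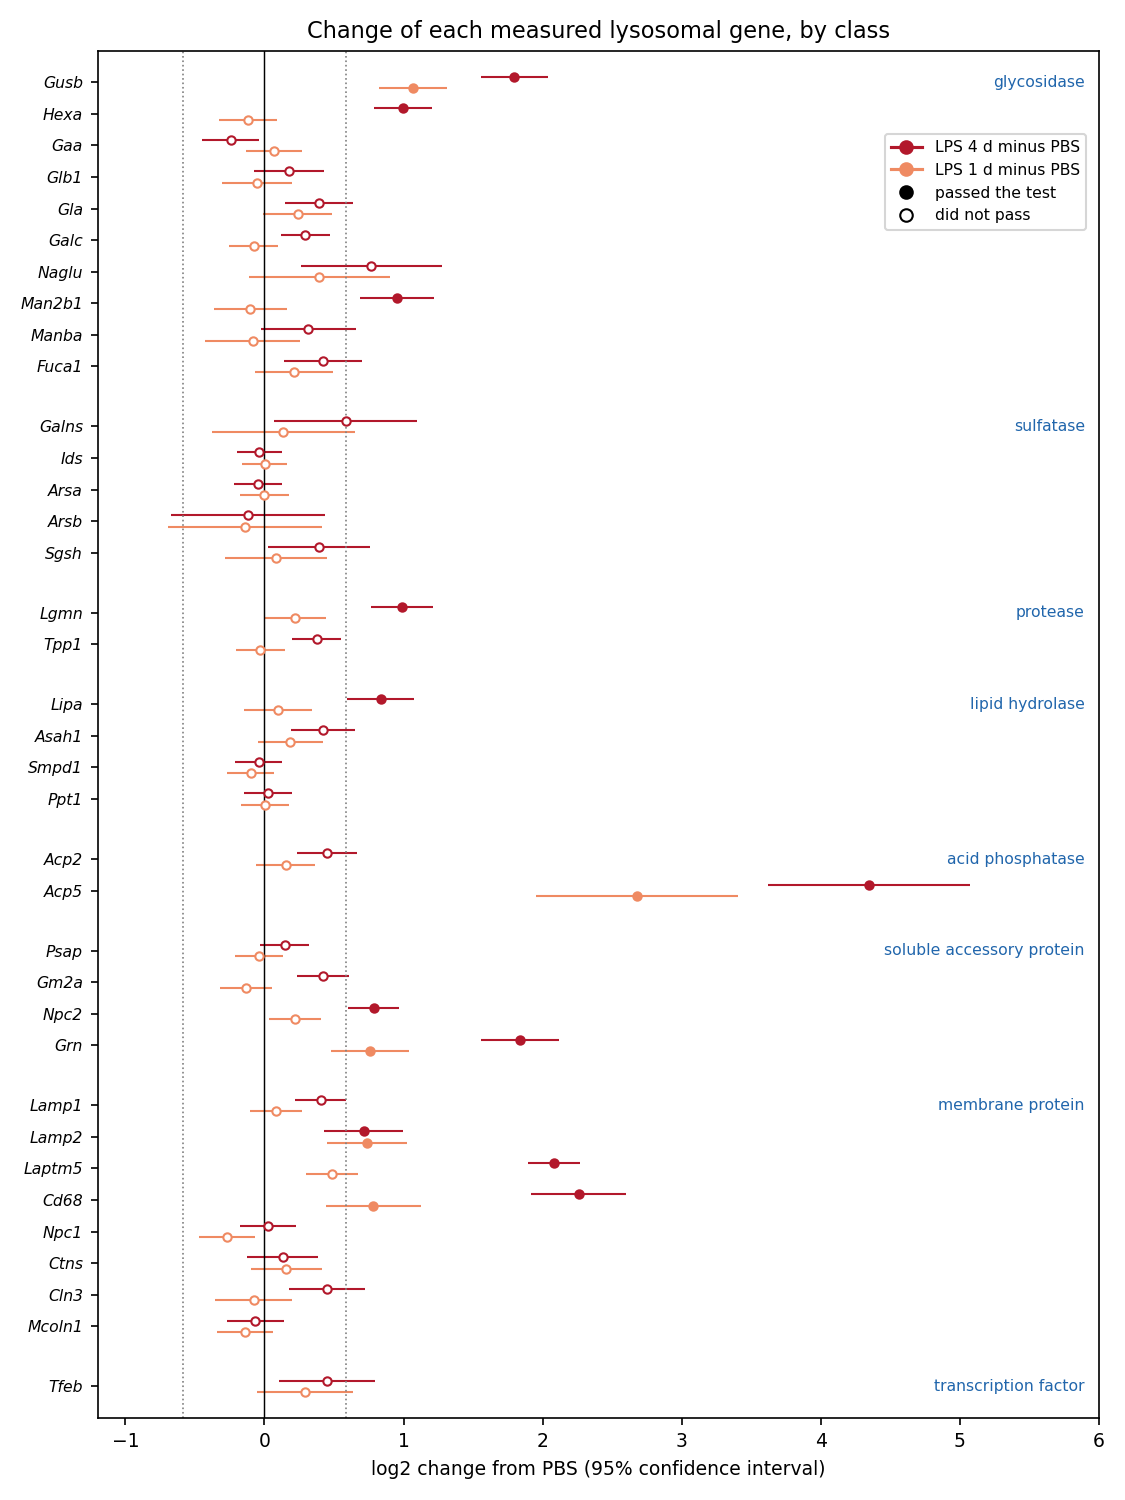
Log2 change of each of the 36 measured members against PBS (horizontal axis), by class, at 4 d (upper point of each pair, red) and 1 d (lower point, orange), with 95% confidence intervals of the fit on 9 arrays; filled points passed the test, and dotted lines mark a fold of 1.5. The points at 4 d run from -0.24 (Gaa) to 4.35 (Acp5), and those at 1 d from -0.27 (Npc1) to 2.68 (Acp5).

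The tissue is a mixture, and in such samples more cells of a type and more RNA per cell cannot be told apart. Summed intensity of 10 macrophage and monocyte markers was 1887 to 2506 on the LPS 4 d arrays, 1095 to 1226 on the LPS 1 d arrays and 309 to 330 on the PBS arrays. The sum of 8 microglial markers was 1633 to 1862 at 4 d, 478 to 725 at 1 d and 774 to 807 in PBS. The sum of 8 neutrophil markers was 278 to 477 at 4 d, 1550 to 4236 at 1 d and 87.6 to 169 in PBS, with Camp at background in all 3 groups. The markers of a list did not all move one way. Of the macrophage and monocyte markers, 9 of 10 were higher at 4 d than in PBS, while at 1 d 7 were higher and Mrc1 was lower (-0.80). Set against 1 d, 5 of these 10 were higher at 4 d and 1, Plac8, was lower (-2.37). Of the microglial markers, 4 of 8 were higher at 4 d than in PBS (Tmem119, Cx3cr1, Olfml3 and Fcrls), and P2ry12, Gpr34 and P2ry13 were lower at 1 d. Set against 1 d, 7 of these 8 were higher at 4 d and 0 were lower. Of the neutrophil markers, 5 of 8 were higher at 1 d and 1 at 4 d. The part of these cell types in the members' changes was not tested. Several of the macrophage markers, such as Csf1r and Aif1, are also made by microglia.

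Markers of the labelled tissue were present on all arrays. The sum of 10 neuronal markers was 12573 to 13339 at 4 d, 13493 to 13886 at 1 d and 13458 to 13817 in PBS, and 0 of the 10 passed a comparison by limma, with 1 unadjusted p under 0.05 at 1 d and 1 between the times. The sum of 7 astrocyte markers was 3707 to 4319 at 4 d, 3161 to 3259 at 1 d and 2586 to 2813 in PBS, and Gfap and Aqp4 were higher at both times. The sum of 7 oligodendrocyte markers was 6000 to 6863 at 4 d, 5758 to 6128 at 1 d and 6748 to 6850 in PBS, with Opalin (-1.15) and Cnp (-0.63) lower at 1 d. The sum of 7 endothelial markers was 758 to 949 at 4 d, 515 to 581 at 1 d and 582 to 602 in PBS, with Cldn5 and Cdh5 higher at 4 d and Cdh5 at 1 d. Of 8 lymphocyte markers, 7 were at background in all groups, 1 of these (Nkg7) was higher at 4 d, and the sum stayed between 53.6 and 66.3 on every array.

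Glycosidases remove sugars from glycolipids, glycoproteins and glycosaminoglycans. Of the 10 measured, 3 were higher at 4 d, 1 was higher at 1 d and 0 were lower. Gusb, the β-glucuronidase that trims glucuronic acid from glycosaminoglycans, had 7.15, 6.91 and 7.06 on the LPS 4 d arrays, 6.32, 6.29 and 6.32 on the LPS 1 d arrays and 5.09, 5.19 and 5.45 on the PBS arrays. The 3 groups did not overlap, and both LPS groups lay above PBS. Gusb was 3.48-fold higher at 4 d than in PBS (log2 change 1.80 ± 0.11, SE, limma adjusted p = 2.57e-05) and 2.10-fold higher at 1 d (1.07 ± 0.11, adjusted p = 0.000436). It was also higher at 4 d than at 1 d, by 0.73 ± 0.11 (adjusted p = 0.00815). A second, dimmer probe set for Gusb did not pass, with changes of 0.24 ± 0.19 at 4 d (adjusted p = 0.586) and 0.10 ± 0.19 at 1 d (adjusted p = 0.855), and with both probe sets averaged the change between the times was 0.43 (adjusted p = 0.0556). The average still passed against PBS, at 1.02 at 4 d and 0.585 at 1 d, the latter at the very edge of the required fold.

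Hexa and Man2b1 were high at 4 d and not at 1 d. Hexa, the α subunit of the β-hexosaminidase that degrades GM2 ganglioside, had 9.07, 8.88 and 9.05 at 4 d, 7.87, 7.77 and 8.03 at 1 d and 8.03, 8.02 and 7.96 in PBS. All LPS 4 d arrays lay above all others, and the LPS 1 d and PBS arrays overlapped. The change at 4 d was 1.99-fold (1.00 ± 0.09, adjusted p = 0.000328), that at 1 d was -0.12 ± 0.09 (adjusted p = 0.598), and the difference between the times was 1.11 ± 0.09 (adjusted p = 0.000499). Man2b1, the lysosomal α-mannosidase of glycoprotein breakdown, showed the same order, with 8.36, 7.997 and 8.32 at 4 d, 7.19, 7.04 and 7.27 at 1 d and 7.15, 7.33 and 7.33 in PBS. Its change was 1.94-fold at 4 d (0.95 ± 0.12, adjusted p = 0.00175) and -0.10 ± 0.12 at 1 d (adjusted p = 0.74), with a difference between the times of 1.06 ± 0.12 (adjusted p = 0.00188).

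The 7 other measured glycosidases passed no comparison. They were Gaa, which releases glucose from glycogen, Glb1, a β-galactosidase, Gla, an α-galactosidase of globo-series glycolipids, Galc, which degrades the galactolipids of myelin, Naglu, which acts on heparan sulfate, Manba, a β-mannosidase, and Fuca1, a fucosidase. Their changes at 4 d ran from -0.24 (Gaa) to 0.77 (Naglu), with adjusted p between 0.0835 and 0.483. Naglu passed the fold but not the test at 4 d (0.77 ± 0.22, adjusted p = 0.113), and its 3 LPS 4 d arrays spread from 5.55 to 6.34. Galc was 1.29-fold higher at 4 d than at 1 d, under the fold required (0.37 ± 0.08, adjusted p = 0.0436).

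Sulfatases remove sulfate from glycosaminoglycans and sulfolipids, and 0 of the 5 passed any comparison by limma. Galns and Sgsh had unadjusted p values under 0.05 in the comparison of LPS 4 d with PBS, and no sulfatase had one in the other comparisons. Galns, which acts on keratan sulfate and chondroitin sulfate, had the largest change of the class, with 6.02, 4.98 and 5.39 at 4 d, 4.91, 5.12 and 5.01 at 1 d and 4.76, 4.81 and 5.08 in PBS. The groups overlapped, and LPS 4 d replicate 1 stood above the rest. Its change at 4 d was 0.58 ± 0.23 (adjusted p = 0.244), with a 95% confidence interval of 0.07 to 1.10. Ids, which acts on heparan and dermatan sulfate, and Arsa, which acts on sulfatide, had changes at 4 d of -0.04 ± 0.07 (interval -0.20 to 0.12) and -0.05 ± 0.08 (interval -0.22 to 0.13). For both, by the probe set used, the interval leaves out a fold of 1.5 in either direction. Ids has 6 probe sets, and the dimmer ones ran from -0.46 ± 0.19 (limma adjusted p = 0.281) to 0.17 ± 0.14 (adjusted p = 0.609, at background) at 4 d. For Arsb, which acts on dermatan sulfate and lay close to background, the interval ran from -0.67 to 0.43, and for Sgsh, the heparan N-sulfatase, from 0.03 to 0.76.

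The 2 proteases outside the cathepsins were both above PBS at 4 d, and 1 of them passed. Lgmn, the asparaginyl endopeptidase that also processes cathepsins, had 9.50, 9.21 and 9.36 at 4 d, 8.67, 8.45 and 8.65 at 1 d and 8.32, 8.36 and 8.42 in PBS. The 3 groups did not overlap, and the LPS 4 d arrays stood well clear of both others. Lgmn was 1.98-fold higher at 4 d (0.99 ± 0.10, adjusted p = 0.000528), with 0.22 ± 0.10 at 1 d (adjusted p = 0.325) and a difference between the times of 0.77 ± 0.10 (adjusted p = 0.00391). Tpp1, a tripeptidyl peptidase, met the adjusted p but not the fold at 4 d (0.38 ± 0.08, adjusted p = 0.0294) and between the times (0.41 ± 0.08, adjusted p = 0.0282). Its second probe set met the limma adjusted p between the times (0.39 ± 0.07, adjusted p = 0.0254) but not at 4 d (0.20 ± 0.07, adjusted p = 0.218).

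Among 4 lipid hydrolases, Lipa passed at 4 d. Lipa, the acid lipase that frees cholesterol and fatty acids from lipids taken up by the cell, had 7.56, 7.19 and 7.36 at 4 d, 6.61, 6.53 and 6.76 at 1 d and 6.57, 6.54 and 6.50 in PBS. The LPS 4 d arrays lay above all others, and the LPS 1 d and PBS arrays overlapped. The change was 1.79-fold at 4 d (0.84 ± 0.11, adjusted p = 0.00227), 0.10 ± 0.11 at 1 d (adjusted p = 0.725) and 0.74 ± 0.11 between the times (adjusted p = 0.00732). All 3 probe sets of Lipa passed both of the comparisons that it passed here. Asah1, the acid ceramidase, had 0.42 ± 0.10 at 4 d (adjusted p = 0.0619). Smpd1, the acid sphingomyelinase, and Ppt1, which removes palmitate from proteins, had -0.04 ± 0.07 and 0.03 ± 0.08 at 4 d, with intervals of -0.21 to 0.13 and -0.14 to 0.20.

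Acp5 had the largest change of all members at both times. This tartrate-resistant acid phosphatase, known from osteoclasts and activated macrophages, had 7.03, 6.39 and 7.14 at 4 d, 5.79, 4.67 and 5.10 at 1 d and 2.21, 2.31 and 3.00 in PBS. The groups did not overlap, and all 3 PBS arrays were below 3.49, the highest mean of the arrays' nonspecific control probe sets, which was taken as background. Set against that background level, the mean of Acp5 was 10.3-fold higher at 4 d and 3.24-fold higher at 1 d. These folds make no allowance for the spread of the arrays. Its fitted changes were 4.35 ± 0.32 (adjusted p = 8.57e-05) and 2.68 ± 0.32 (adjusted p = 0.00131). The difference between 4 d and 1 d, 1.67 ± 0.32 (adjusted p = 0.0301), no longer passed when LPS 4 d replicate 1 or 3, LPS 1 d replicate 2 or 3 or PBS replicate 2 was left out, with adjusted p up to 0.113. Acp2, the lysosomal acid phosphatase of most cells, met the adjusted p but not the fold at 4 d (0.45 ± 0.09, adjusted p = 0.0321). Its second probe set met neither (0.57 ± 0.16, limma adjusted p = 0.112).

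Of 4 soluble accessory proteins, Npc2 and Grn passed at 4 d and Grn at 1 d. Grn encodes progranulin, a secreted protein that reaches lysosomes and is needed for their function, and had 10.03, 9.73 and 9.89 at 4 d, 8.67, 8.70 and 9.05 at 1 d and 8.10, 8.10 and 7.95 in PBS. The groups stood apart in that order. Grn was 3.58-fold higher at 4 d (1.84 ± 0.12, adjusted p = 4.93e-05), 1.69-fold higher at 1 d (0.76 ± 0.12, adjusted p = 0.0084) and 1.08 ± 0.12 higher at 4 d than at 1 d (adjusted p = 0.00225). Its second probe set passed all 3 comparisons as well, with changes of 1.95, 0.70 and 1.25.

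Npc2, which binds cholesterol inside the lysosome and hands it to Npc1 in the membrane, had 9.76, 9.65 and 9.68 at 4 d, 9.13, 9.04 and 9.21 at 1 d and 8.91, 8.99 and 8.83 in PBS. The groups did not overlap. The change was 1.72-fold at 4 d (0.78 ± 0.08, adjusted p = 0.000623) and 0.22 ± 0.08 at 1 d (adjusted p = 0.228), and the difference between the times, 0.56 ± 0.08 (adjusted p = 0.00724), was just under the fold. Both of its other probe sets passed between the times, at 0.62 ± 0.11 (adjusted p = 0.0187) and 0.86 ± 0.15 (adjusted p = 0.0193). Against PBS at 4 d the brighter of these passed (0.90 ± 0.11, adjusted p = 0.00154) and the dimmer did not (0.61 ± 0.15, adjusted p = 0.0658). Npc1, its membrane partner, had 0.03 ± 0.09 at 4 d (adjusted p = 0.919, interval -0.17 to 0.23) and -0.27 ± 0.09 at 1 d (adjusted p = 0.165). Gm2a, the activator that presents GM2 ganglioside to the hexosaminidase, met the adjusted p but not the fold at 4 d (0.42 ± 0.08, adjusted p = 0.0231) and between the times (0.55 ± 0.08, adjusted p = 0.00842). Its other probe sets did not meet the limma adjusted p at 4 d (0.43 and 0.17, adjusted p = 0.0899 and 0.772) or between the times (0.41 and 0.29, adjusted p = 0.143 and 0.653). Psap, the precursor of the saposins, had 0.15 ± 0.08 at 4 d (adjusted p = 0.397).

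Among 8 membrane proteins, 3 passed at 4 d and 2 at 1 d. Cd68, a heavily glycosylated protein of the late endosomes and lysosomes of phagocytes, had 8.38, 7.79 and 8.23 at 4 d, 6.74, 6.48 and 6.76 at 1 d and 5.80, 5.88 and 5.95 in PBS. The groups did not overlap. Cd68 was 4.79-fold higher at 4 d (2.26 ± 0.15, adjusted p = 4.58e-05) and 1.48 ± 0.15 higher at 4 d than at 1 d (adjusted p = 0.0012). The change at 1 d, 1.72-fold (0.78 ± 0.15, adjusted p = 0.0208), no longer passed when LPS 1 d replicate 1 or 3 or any 1 of the 3 PBS arrays was left out, with adjusted p up to 0.0824.

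Laptm5, a lysosomal membrane protein of blood-derived cells and microglia, had 8.08, 7.96 and 8.12 at 4 d, 6.56, 6.44 and 6.37 at 1 d and 5.93, 5.96 and 6.03 in PBS. The groups did not overlap, and the SD within each was under 0.1. Laptm5 was 4.23-fold higher at 4 d (2.08 ± 0.08, adjusted p = 4.91e-06) and 3.03-fold higher at 4 d than at 1 d (1.60 ± 0.08, adjusted p = 0.00011). At 1 d it met the adjusted p but not the fold (0.48 ± 0.08, adjusted p = 0.0113). Its second probe set passed the same 2 comparisons, at 1.76 and 1.42.

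Lamp2 was the 1 member higher at both times whose levels at 4 d and 1 d overlapped. Lamp2, a main protein of the lysosomal membrane with a part in autophagy, had 8.83, 8.47 and 8.92 at 4 d, 8.67, 8.90 and 8.73 at 1 d and 8.02, 7.95 and 8.11 in PBS. Both LPS groups lay above PBS. The change was 1.64-fold at 4 d (0.71 ± 0.13, adjusted p = 0.0136) and 1.67-fold at 1 d (0.74 ± 0.13, adjusted p = 0.011), and the difference between the times was -0.02 ± 0.13 (adjusted p = 0.962, interval -0.31 to 0.26). The call at 4 d was lost without LPS 4 d replicate 1, PBS replicate 1 or PBS replicate 2 (adjusted p up to 0.0596), and that at 1 d without LPS 1 d replicate 2 or PBS replicate 2 (up to 0.0534). Of its 3 probe sets, 2 passed at both times, and the dimmest had 0.49 and 0.48 (adjusted p = 0.104 and 0.118).

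Lamp1, the close relative of Lamp2, met the adjusted p but not the fold at 4 d (0.40 ± 0.08, adjusted p = 0.0289) and had 0.08 ± 0.08 at 1 d (adjusted p = 0.703). Ctns, which exports cystine, had 0.13 ± 0.11 at 4 d, and Mcoln1, a channel that releases calcium from the lysosome, had -0.06 ± 0.09 (interval -0.27 to 0.14). Cln3, a membrane protein mutated in juvenile Batten disease in humans, had 0.45 ± 0.12 at 4 d (adjusted p = 0.0908), and 0.06 ± 0.22 by its second probe set (limma adjusted p = 0.923).

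Tfeb, the transcription factor that drives lysosomal genes through the CLEAR element, had 4.35, 4.08 and 3.89 at 4 d, 3.96, 4.04 and 3.83 at 1 d and 3.69, 3.89 and 3.38 in PBS. The LPS 4 d and PBS arrays met only at 3.89, the LPS 1 d arrays overlapped both, and the levels were close to background. Its change at 4 d was 0.45 ± 0.15 (limma, unadjusted p = 0.0157, adjusted p = 0.175), with an interval of 0.11 to 0.80. The change at 1 d was 0.29 ± 0.15 (adjusted p = 0.403).

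**Figure D3:**
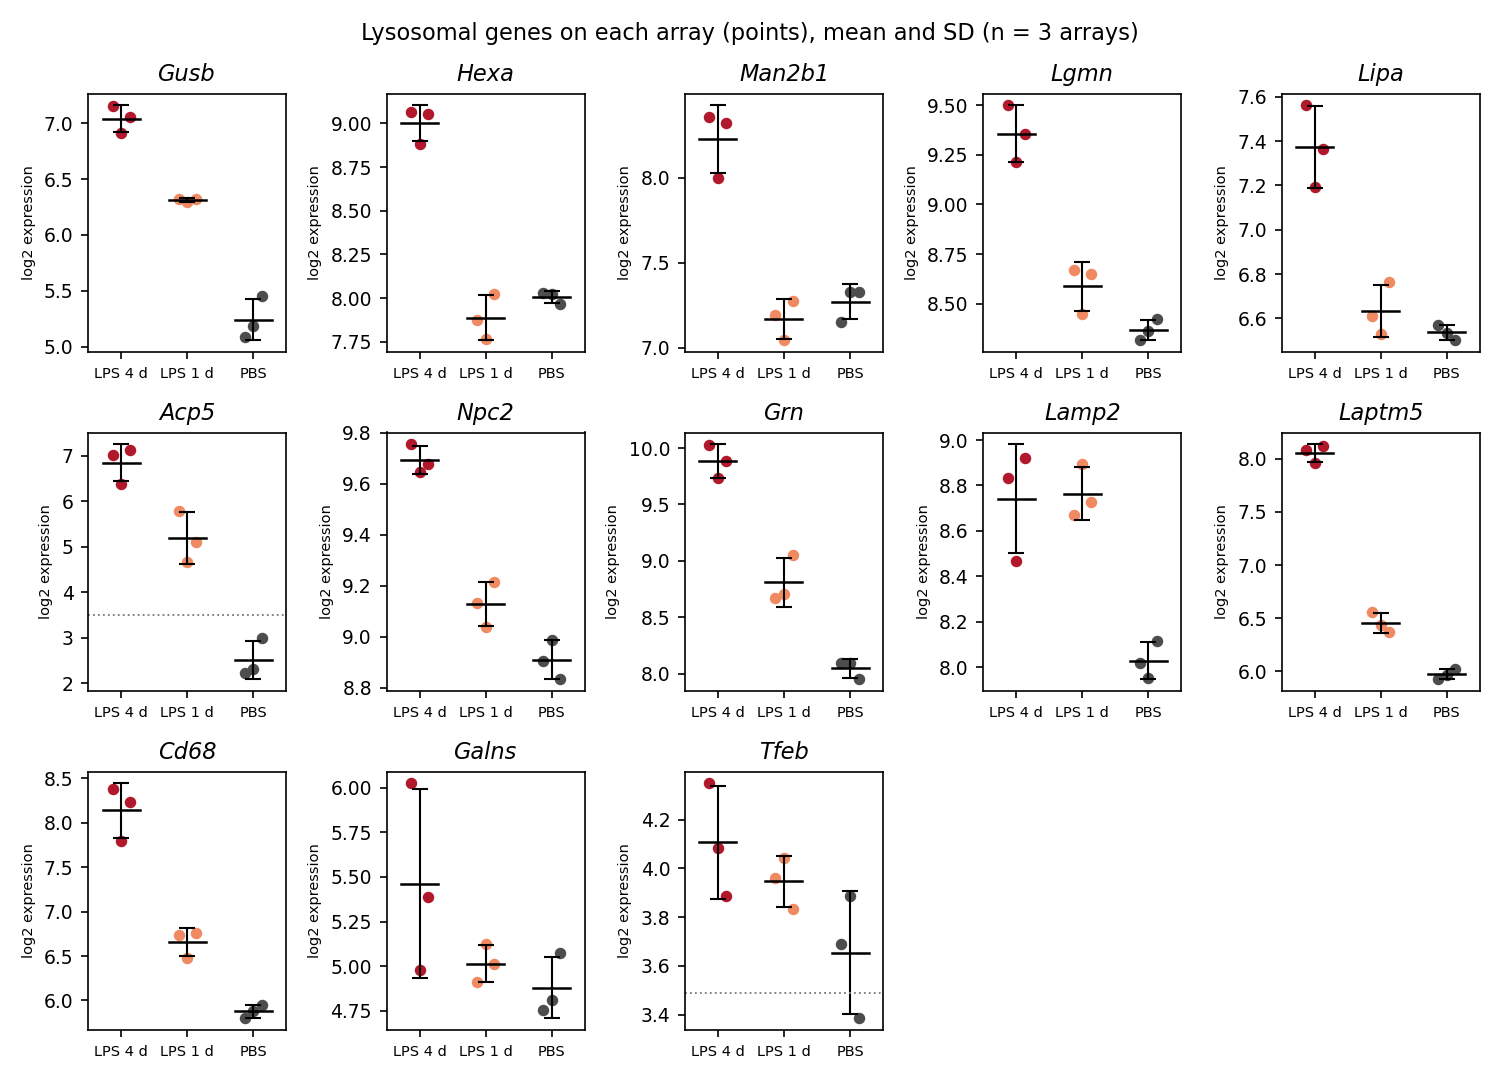
Log2 expression (vertical axis, a separate scale in each panel) of the 11 members that passed a comparison, with Galns and Tfeb, on each of the 3 arrays of LPS 4 d, LPS 1 d and PBS; lines are means, bars SD (n = 3), and the dotted line is the background level of 3.49 where a panel reaches it. Gusb, Cd68 and Grn are higher in both LPS groups than in PBS and highest at 4 d, Hexa and Man2b1 are high at 4 d only, and Lamp2 is level between the 2 LPS groups.

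By their pattern the members fell into 5 groups. Gusb, Acp5, Grn and Cd68 (4 members) passed all 3 comparisons. Lamp2 passed both against PBS and not the one between the times. Hexa, Man2b1, Lgmn, Lipa and Laptm5 (5 members) were higher at 4 d than in PBS and than at 1 d, and Npc2, by the probe set used, was higher at 4 d than in PBS but under the fold between the times. The other 25 passed none, and 0 members were higher at 1 d only.

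Among the LPS 4 d arrays, replicate 2 had the lowest value for all 11 of the members that passed and for 27 of all 36. How often an array was the lowest of its group over all genes was not counted. The median difference of the 11 from the PBS mean was 1.13, 0.88 and 1.05 on LPS 4 d replicates 1, 2 and 3, and 0.59, 0.46 and 0.40 on the LPS 1 d arrays. The summed macrophage and monocyte markers were 2506, 1887 and 2446 on the same LPS 4 d arrays. Among the LPS 1 d arrays, replicate 2 had the lowest value for 8 of the 11, the highest neutrophil sum (4236, against 1550 and 2447) and the lowest microglial sum (478, against 725 and 697). The part of these cell markers in the members' spread was not tested.

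Other lysosomal genes were read from 5 lists in the same fit. Of 20 measured subunits of the V-ATPase, the pump that acidifies the lysosome, only Tcirg1 passed, higher by 1.35 ± 0.11 at 4 d (adjusted p = 0.000145) and 0.95 ± 0.11 at 1 d (adjusted p = 0.00106). The list's median was -0.04 at both times. For LPS 4 d against PBS, limma gave an unadjusted p under 0.05 for 2 higher subunits and 1 lower one. For LPS 1 d against PBS it did so for 2 higher and 0 lower. Atp6v0e met the adjusted p in the LPS 4 d group and was just under the fold (0.578 ± 0.10, adjusted p = 0.0137). Of 21 other hydrolases, 4 were higher at 4 d than in PBS, 1 was higher at 1 d than in PBS and 1 at 4 d than at 1 d, and the list's median was 0.27 at 4 d and 0.09 at 1 d. By the unadjusted p of limma under 0.05, LPS 4 d had 9 higher and 0 lower hydrolases against PBS. LPS 1 d had 3 higher and 1 lower. Ggh met the adjusted p but not the fold in the LPS 4 d group (0.52 ± 0.10, adjusted p = 0.0205). Plbd1, a phospholipase B-like protein, was at background in PBS. Its mean was 4.27-fold above the background level at 4 d and 4.06-fold at 1 d (limma against PBS, adjusted p = 0.00061 and 0.000627). Pla2g15, the lysosomal phospholipase, was higher by 0.69 ± 0.12 at 4 d than in PBS (adjusted p = 0.0149) and by 0.85 ± 0.12 than at 1 d (adjusted p = 0.00738). The ribonucleases Rnaset2a and Rnaset2b were higher by 0.84 and 0.83 at 4 d, and as near-identical copies they may share signal.

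Of 24 other lysosomal membrane proteins, 1 passed. Slc15a3, a carrier that exports peptides and histidine, was higher by 2.32 ± 0.25 at 4 d (adjusted p = 0.000698) and 2.73 ± 0.25 at 1 d (adjusted p = 0.000211), and the list's median was 0.03 and -0.01. By the unadjusted p of limma under 0.05, LPS 4 d had 7 higher and 0 lower genes of this list against PBS. LPS 1 d had 1 higher and 0 lower. Mfsd1 (0.49, adjusted p = 0.0159) and Glmp (0.53, adjusted p = 0.0479) met the adjusted p but not the fold in the LPS 4 d group. Of 12 genes that sort enzymes to the lysosome and 15 transcription factors and mTORC1 recruitment proteins, 0 passed by limma at either time, with 3 sorting genes and 4 of the factors higher at an unadjusted p under 0.05 at 4 d, and 1 sorting gene and 2 of the factors at 1 d. At each time 1 of the factors and 0 sorting genes were lower by that measure. Their medians at 4 d were 0.13 and 0.01.

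**Figure D4:**
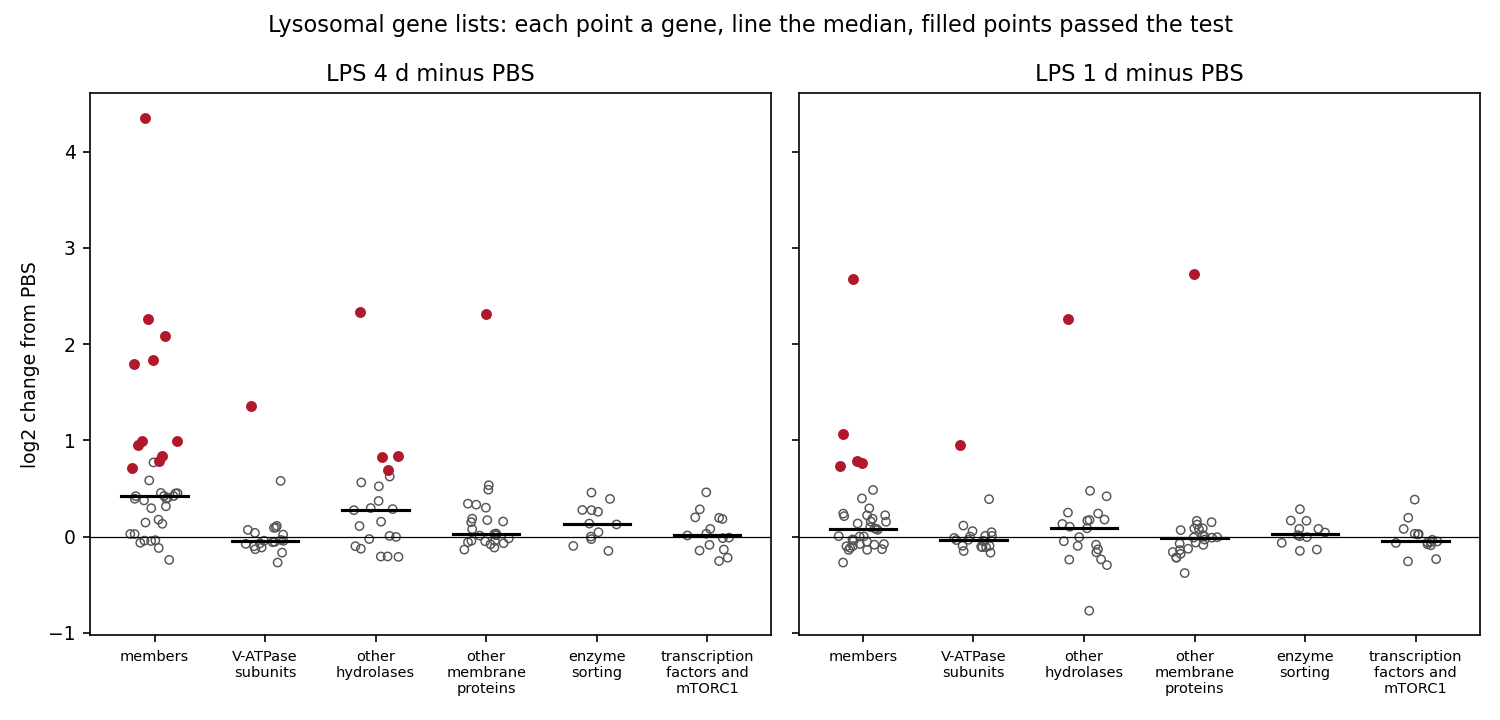
Log2 change from PBS (vertical axis) of the 36 members and of 5 other lists of lysosomal genes, at 4 d (left panel) and 1 d (right panel); each point is 1 gene, the line is the median of the list, and filled points passed the test. The members' median lies at 0.42 at 4 d and 0.08 at 1 d, and Tcirg1 is the 1 filled point among 20 V-ATPase subunits in each panel.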

How the data were processed

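RNA was hybridised to Affymetrix HT mouse genome arrays. The table deposited by the authors holds 1 log2 value per probe set and array. Per the submitters' processing notes it was made by RMA in Affymetrix Expression Console, which corrects background, normalizes between arrays and summarises probes, its version being not given in the sources used here. Scanner files were not analysed here. Precision is limited by the number of arrays, 3 per group. Median log2 values lay between 4.32 and 4.37 on the 9 arrays.

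Without the 104 control entries, 45037 probe sets were fitted with a mean per group in limma 3.58.1 (R 4.3.3), with empirical Bayes moderation (6 residual and 9.02 total degrees of freedom) and Benjamini-Hochberg adjustment over all probe sets. A result passed with an adjusted p under 0.05 together with a fold of 1.5 or more. With 3 arrays per group the smallest p of an exact permutation test is 0.1, so none was used. The fit was tested on simulated data. Symbols came from the platform annotation, 28898 probe sets with 1 symbol, 551 with several and 15588 with none. Of the first, 28689 matched the RefSeq gene table through Entrez identifiers, and 0 symbols changed.

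Values on every array are given for members that passed a comparison and, in a class with none, for the member with the largest change. Up to 4 genes that passed are named per pathway list, by size of change. Markers were summed on the linear scale over each list. Promoter sequences are from RefSeq (GRCm38.p6). The members and lists were chosen with earlier results of these data known. Same-numbered arrays of different groups did not deviate together (correlations between -0.035 and 0.022), so numbers were not used as pairs. Other normalizations, filters, probe set rules, thresholds and tests and leaving out each array were tried. Figures were drawn with matplotlib 3.10.9.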

Additional observations from a re-analysis of the deposited data

Results flagged for a closer look

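For 9 members the change after LPS at 4 d differed from that at 1 d by the direct test of the difference (limma, adjusted p under 0.05 with a fold of 1.5 or more). The log2 change at 4 d exceeded that at 1 d by 1.67 for Acp5, 1.60 for Laptm5, 1.48 for Cd68, 1.11 for Hexa, 1.08 for Grn, 1.06 for Man2b1, 0.77 for Lgmn, 0.74 for Lipa and 0.73 for Gusb. By this rule 1.84% of all genes were higher at 4 d. In each of the 9 the 3 LPS 4 d arrays lay above the 3 LPS 1 d arrays. Since the 9 were picked by a test on these same arrays, this is no further support. Those 2 groups did not overlap, in either direction, for 22 of all 36 members, and the share over all genes was not counted.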

How the results depend on the processing

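The 25 member changes that passed were recomputed under 9 alternatives at the same threshold and in 9 fits that each left out 1 array. Of the 450 values, 413 passed again, 37 kept their direction but no longer passed, and 0 reversed. Many of these settings could not reverse a direction, because they leave the fitted change as it was. These are the other tests, the filter on low values, the replicate block and leaving out an array of a group outside the comparison. An ordinary test on the 2 groups alone, adjusted over all probe sets, passed 7 members at 4 d against PBS, 1 at 1 d and 0 between 4 d and 1 d, where 18 were higher at an unadjusted p under 0.05. This test has fewer arrays and no moderation. With a fold of at least 2, 5 members passed at 4 d, 2 at 1 d and 6 for 4 d against 1 d. Leaving out 1 array gave 10 to 11 members at 4 d, 3 to 5 at 1 d and 8 to 11 for 4 d against 1 d. At 1 d the count was 3 without PBS replicate 2. Centring the arrays, quantile normalization and a filter on low values kept the same members in each comparison. The filter could remove no member, since 0 members were at background in all groups. The deposited values were already normalized between arrays, so the first 2 settings had little to change. With the replicate block, the counts were 11, 5 and 9 and the count across the 3 groups was 13, against 15. The numbers mark no shared animals. Taking the most variable probe set lost Npc2 at 4 d (0.61, adjusted p = 0.0658). Under the same setting, and with the probe sets averaged, Npc2 passed between the times.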
